A study of Pistia stratiotes with 8 samples.

Results

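Pistia stratiotes, the water lettuce, is an arum relative that floats on fresh water, its leaf rosette in the air and its roots hanging free below. Messenger RNA was measured in 4 leaf libraries and 4 root libraries. Among 16504 transcript models, 83 had leaf values that differed widely between replicates while the root values of the same models stayed close together. Members were selected on the deposited normalized counts. A model was taken if it averaged at least 100 normalized counts in each tissue, its lowest leaf value was above 0, its highest leaf value was at least 4 times the lowest, and its highest root value was under 1.5 times the lowest. The ratio of the highest to the lowest of 4 libraries is called the leaf ratio or the root ratio below. Since these values chose the members, their ratios are given as a description and were not tested.

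All plants were untreated and were grown for 10 days in flasks of SH medium. A leaf library came from the largest emerged leaves of young plants with 3 to 4 leaves. A root library came from roots whose tips and side roots had been taken off. Tissue was pooled within a flask, and each flask was 1 biological replicate. The labels give no genotype or clone and no plant age beyond this culture time. Libraries are numbered here as the columns of the table are. The leaf columns run from 1 to 4 but the labelled leaf samples are 1, 3, 4 and 5. A leaf column is thus known by its tissue and not by its labelled sample.

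A leaf is a green organ that is still expanding when young, and the transcripts of a growing leaf are known to change with its age, the light and the time of day. A root segment without tip and side roots lacks the dividing zone and holds mainly mature tissue. The table pairs its models with no gene names, and each model number occurs once, so no function, pathway or cell type marker can be given for any member. In pooled tissue, fewer cells of a type and less RNA per cell cannot be told apart.

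Estimated depth was alike in all libraries, at 5814000 to 6209000 reads. The lowest leaf value of a member was worth an estimated 9.18 to 5512 reads, with a median of 84.2, and was under 50 reads in 19 of the 83 members.

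The members were the corner of a lopsided distribution. Of 7222 models averaging at least 100 in both tissues, 250 (3.46%) had a leaf ratio of at least 4, whereas 17 had a root ratio of at least 4. The mirrored rule, with a root ratio of at least 4 and a leaf ratio under 1.5, found 0 models. The median ratio over the 7222 models was 1.54 in leaf and 1.33 in root. These counts carry no test.

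Most leaf-variable models had a root ratio of 1.5 or more, but 98 of these were at 1.5 to 2 and 12 were at 4 or more. A root ratio under 1.5 was held by 5473 (75.8%) of the 7222 models, but by 83 (33.2%) of the 250 leaf-variable ones. The share of leaf-variable models was 1.52% among root-steady models and 9.55% among the others. It was 1.24% at root ratios under 1.1, 3.13% at root ratios of 1.4 to 1.5, 6.58% at 1.5 to 2 and 23.6% at 2 to 4. Models with a wider root ratio were thus more often leaf-variable, and the members were the leaf-variable models at the steady end of root.

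**Figure D1:**
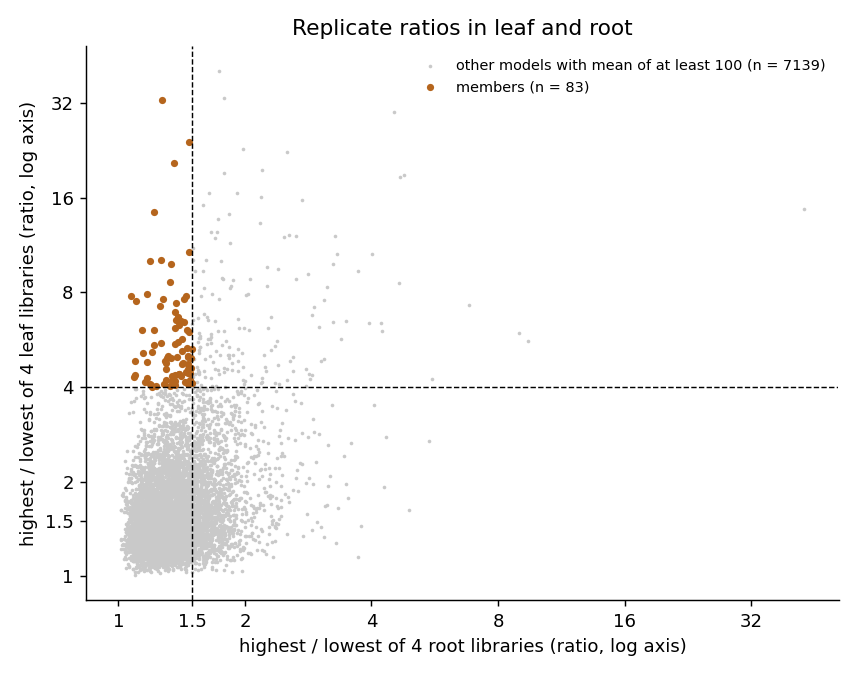
Ratio of the highest to the lowest of 4 replicates in root (horizontal, log axis) and leaf (vertical, log axis) for 7222 models averaging at least 100 normalized counts in each tissue; each point is a model and dashed lines mark the limits of 1.5 and 4. The 83 members fill the upper left field, while the lower right field, with a root ratio of at least 4 and a leaf ratio under 1.5, holds 0 models.

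Most members lay near the limits. The leaf ratio ran from 4.00 to 32.8 with a median of 4.97; it was under 6 in 55 members and at least 8 in 9. The root ratio ran from 1.07 up to the limit with a median of 1.36. The member nearest the leaf limit had a leaf ratio of 4.00, and the root-steady model just outside had 3.98. At the root limit, the ratio just inside was 1.499 and that just outside 1.5005. Between leaf ratios of 3.5 and 4 lay 49 further root-steady models, and 26 members had a leaf ratio under 4.5. Membership is a range on a continuous scale, and 29 models remained at a root limit of 1.3 and 181 were found at a limit of 2.

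Members covered a wide span of levels. Their mean was 113 to 27129 normalized counts in leaf, with a median of 380, and 105 to 16167 in root, with a median of 402. Over all 7222 models the medians were 377 in leaf and 346 in root. The upper quartiles were 911 in leaf and 976 in root for members, and 741 and 663 for the 7222 models. Members made up 0.855% of the models with a root mean of 100 to 200, 1.15% at 200 to 400, 0.9% at 400 to 800, 2.3% at 800 to 1600 and 0.978% above. All 83 passed the filter used for the tests below, because their root values alone met it. Models whose name ends in a suffix of 2 or later were 6 of the 83 members (7.23%) and 866 of the 7222 models (12%), and 1 member had a suffix of 3 or later.

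Leaf libraries 1 and 4 were the 2 ends of most members. In 69 of 83 members (83.1%) one of them held the lowest leaf value and the other the highest, with leaf libraries 2 and 3 between them. The same held for 2736 (37.9%) of the 7222 models, for 60.2% of the 1376 with a leaf ratio of 2 to 4, and for 113 (67.7%) of the 167 leaf-variable models whose root ratio was 1.5 or more. Leaf libraries 1 and 4 differed by at least 2-fold in 81 of the 83 members (97.6%) and in 17.7% of the 7222 models. Leaf libraries 2 and 3 differed by at least 2-fold in 22 members (26.5%) and in 3.68% of the 7222 models. Wider gaps than in the 7222 models were built in, because members were chosen for their leaf ratio. Among the 167 leaf-variable models with a root ratio of 1.5 or more, the shares were 95.8% for libraries 1 and 4 and 41.3% for 2 and 3. Leaf libraries 2 and 3 were thus less often 2-fold apart in members than in that set.

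The members fell into 2 opposite groups and a small remainder. Leaf library 1 was the lowest in 52 members and the highest in 22, and it lay between other libraries in 9. Leaf library 4 was the highest in 53 and the lowest in 22. Leaf library 2 was the lowest in 3 and the highest in 2, and leaf library 3 was the lowest in 6 and the highest in 6. Among the 7222 models the lean was the other way: leaf library 1 was the lowest in 31.7% and the highest in 37.7%. The 167 leaf-variable models that were not root-steady leaned as the members did. Leaf library 1 was the lowest in 58.7% of them and the highest in 14.4%. Leaf library 4 was the highest in 67.1% of them and the lowest in 22.8%.

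**Figure D2:**
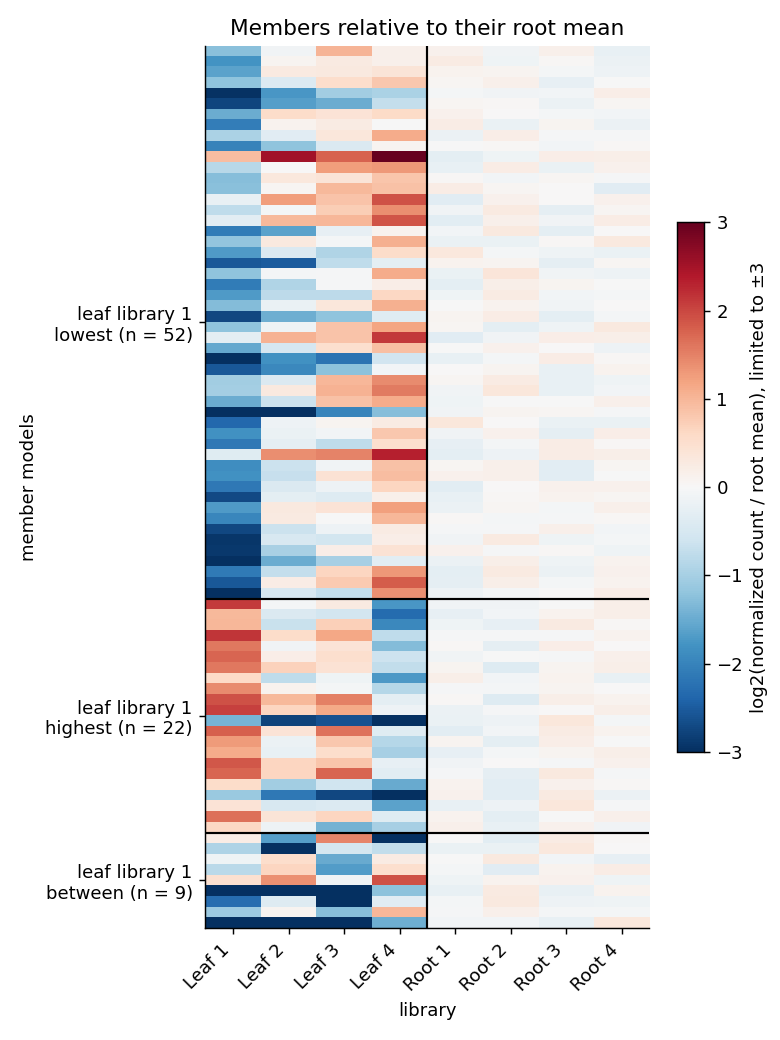
Heat map of the 83 members (rows) in the 8 libraries (columns), coloured by log2 of the normalized count over the root mean of the same member, with colours limited to 3 in each direction; horizontal lines part the members by the place of leaf library 1. The 4 root columns are pale throughout, leaf library 1 is the lowest leaf column in the 52 members at the top, of which 48 have leaf library 4 as the highest, and it is the highest leaf column in the 22 below, of which 21 have leaf library 4 as the lowest.

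**Figure D3:**
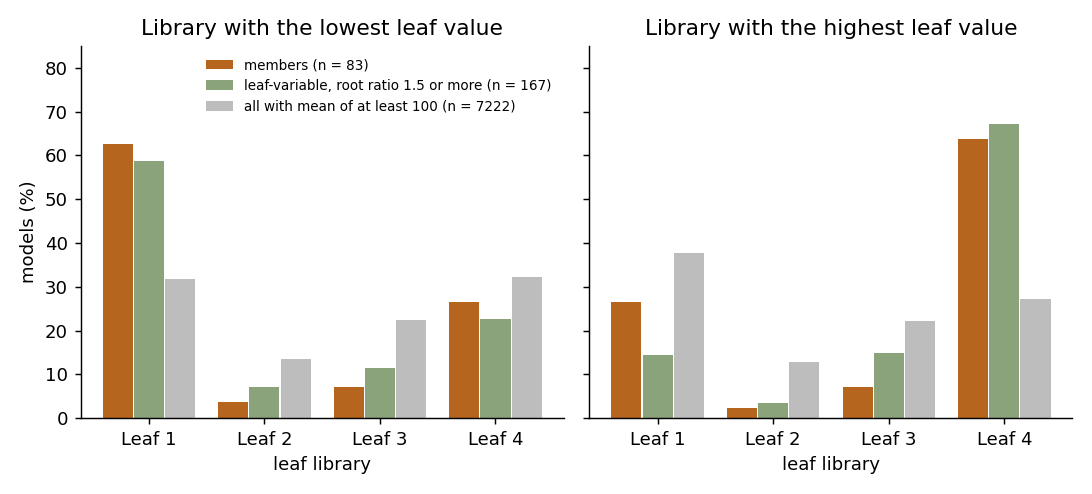
Share of models (%) in which each leaf library held the lowest (left) or highest (right) leaf value, for 83 members, 167 leaf-variable models with a root ratio of 1.5 or more, and all 7222 models averaging at least 100. Leaf library 1 was the lowest in 62.7% of members and leaf library 4 the highest in 63.9%.

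Which libraries stood together was read from the largest gap between the 4 leaf values on the log2 scale, which parts them in 1 of 14 ways. Leaf library 1 stood alone below the other three in 38 members (45.8%), against 1229 (17%) of the 7222 models and 58 (34.7%) of the leaf-variable models with a root ratio of 1.5 or more. Leaf library 1 stood alone above the rest in 9 members (10.8%), leaf library 4 alone above in 8 (9.64%) and leaf library 4 alone below in 8 (9.64%). In the same order, the shares of the 7222 models were 19.3%, 7.78% and 10.4%. Among the leaf-variable models with a root ratio of 1.5 or more they were 4.79%, 17.4% and 8.98%. Leaf libraries 1 and 2 together lay below 3 and 4 in 8 members, 2 and 4 below 1 and 3 in 5, and 1 and 3 below 2 and 4 in 4. Of the remaining 3 members, leaf library 2 stood alone below in 1, leaf library 3 alone below in 1, and 3 and 4 lay below 1 and 2 in 1. On the linear scale, which gives more weight to gaps between high values, leaf library 1 stood alone below in 9 members.

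Leaf library 3 exceeded leaf library 2 in 40 of the 52 members lowest in leaf library 1, and in 17 of the 22 highest in it. Over all members the share was 73.5%, against 69.5% of the leaf-variable models with a root ratio of 1.5 or more, 65.6% at leaf ratios of 2 to 4 and 53.4% of the 7222 models. The full order 1, 2, 3, 4 from low to high was the commonest of 24 possible orders, with 36 members, and the order 4, 2, 3, 1 came next with 17. The order 1, 3, 2, 4 had 12 members and the order 4, 3, 2, 1 had 4. The order 1, 2, 3, 4 was held by 43.4% of members, 38.3% of the 167 leaf-variable models with a root ratio of 1.5 or more, 14.4% of the models at leaf ratios of 2 to 4 and 8.56% of the 7222. The order 4, 2, 3, 1 was held by 20.5%, 11.4%, 24.9% and 13.5% of the same sets, so both orders also occurred outside the members.

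Middle libraries can be placed on a log2 scale from 0 at leaf library 1 to 1 at leaf library 4. Leaf library 2 had a median place of 0.57 among the members lowest in leaf library 1 and 0.58 among those highest in it. Leaf library 3 had a median place of 0.76 in the first group and 0.44 in the second. Leaf library 3 was therefore nearer to leaf library 4 where that was high and nearer to leaf library 1 where that was high.

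The 52 members lowest in leaf library 1 had a median of 111 normalized counts there, 346 in leaf library 2, 430 in leaf library 3 and 636 in leaf library 4. Their medians in the 4 root libraries were 378 to 425. Leaf library 1 was more than 2-fold below the root mean in 44 of the 52, and leaf library 4 was more than 2-fold above it in 19. The low end thus lay farther from root than the high end did in this group.

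Pis09892.t1 had the widest leaf range of all members. Its normalized counts were 13.3, 122, 103 and 437 in leaf libraries 1 to 4, and 153, 163, 170.1 and 194 in root libraries 1 to 4. Leaf library 1 was 32.8 times lower than leaf library 4, and its value is worth an estimated 9.18 reads, the fewest of any member. The 4 root values lay inside the leaf range, and leaf mean and root mean were 169 ± 185 and 170.1 ± 17.5 (SD, n = 4 each). The difference between tissues on the log2(value + 1) scale was -0.85 with a standard error of 0.79 (limma adjusted p = 0.394). It was 0.059 without leaf library 1 (adjusted p = 0.916) and -1.59 without leaf library 4 (adjusted p = 0.0499). Both shifts were largely built in, because the member was named for its leaf ratio and leaf libraries 1 and 4 are its ends.

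Pis15457.t1 came next among the members with leaf library 1 alone below, with 105, 720.4, 1066 and 2163 normalized counts in leaf libraries 1 to 4. Its root libraries 1 to 4 held 512, 694, 588 and 665. Leaf libraries 2 to 4 were all above root, and leaf library 1 was below it. The log2 difference between tissues was 0.085 with a standard error of 0.72 (limma adjusted p = 0.931). It became 0.95 without leaf library 1 (limma adjusted p = 0.0246) and -0.49 without leaf library 4 (adjusted p = 0.532). Since this member was also named for its leaf ratio, these shifts and the lower p-value were largely built in.

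The most abundant member, Pis14515.t1, belonged to the same group; it was picked for its level after its values were seen. It had 8003, 19651, 33116 and 47745 normalized counts in leaf libraries 1 to 4 and 15084, 20348, 13856 and 15381 in root libraries 1 to 4. Its leaf values climbed through the libraries in the commonest order, and the root values lay between those of leaf libraries 1 and 3. Together the 83 members took 0.674%, 0.842%, 1.14% and 1.56% of leaf libraries 1 to 4, and 1.24% to 1.39% of a root library. Without Pis14515.t1 those shares were 0.582%, 0.576%, 0.723% and 0.902% in leaf and 0.977% to 1.02% in root. The order of leaf libraries 1 and 2 in the summed share thus rested on 1 model.

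In the 22 members highest in leaf library 1, the medians were 1171 normalized counts in leaf library 1, 345 in leaf library 2, 576 in leaf library 3 and 175 in leaf library 4, and 369 to 469 in the root libraries. Leaf library 1 was more than 2-fold above the root mean in 14 of the 22, and leaf library 4 was more than 2-fold below it in 11. The median leaf ratio was 4.5 in this group and 5.24 among the members lowest in leaf library 1.

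Pis10703.t1 had 1494, 339, 421 and 104 normalized counts in leaf libraries 1 to 4, and 328, 327, 351 and 398 in root libraries 1 to 4. Leaf libraries 2 and 3 were close to the root values, while libraries 1 and 4 lay far above and below. The log2 difference between tissues was 0.14 with a standard error of 0.61 (limma adjusted p = 0.864). It was -0.51 without leaf library 1 (adjusted p = 0.305) and 0.77 without leaf library 4 (adjusted p = 0.144). Here too the shifts were largely built in by the choice of member.

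Pis02226.t1 had 968, 330.2, 408 and 188 in leaf libraries 1 to 4, and 267, 284, 279 and 321 in root libraries 1 to 4. Leaf libraries 1 to 3 exceeded every root library and leaf library 4 was under all of them. The log2 difference was 0.46 with a standard error of 0.39 (limma adjusted p = 0.350), and it was 0.032 without leaf library 1 (adjusted p = 0.919) and 0.82 without leaf library 4 (adjusted p = 0.0459). These shifts were likewise largely built in by the choice of member.

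**Figure D4:**
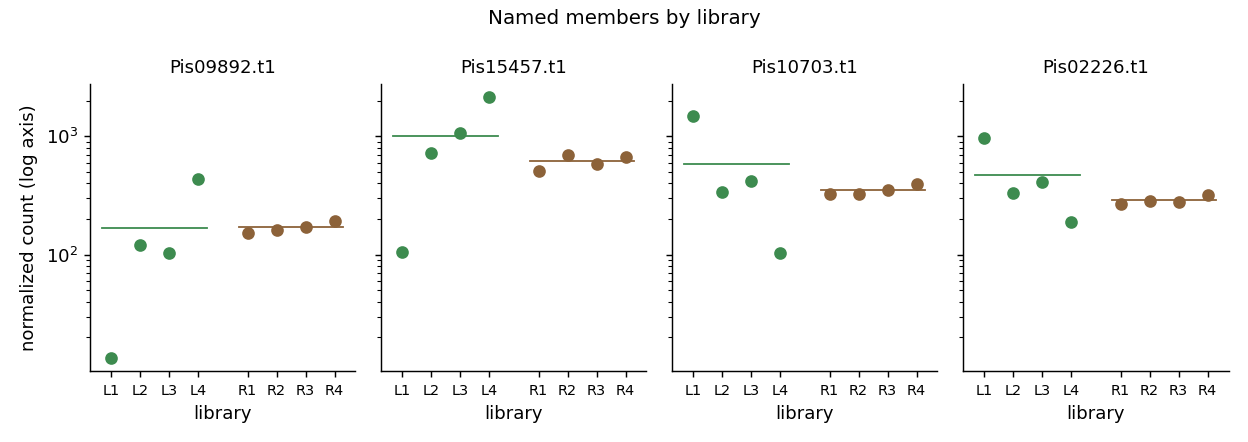
Normalized counts (log axis) of 4 members in leaf libraries L1 to L4 and root libraries R1 to R4; points are libraries and lines are the means of 4. Pis09892.t1 and Pis15457.t1 had leaf library 1 alone below, Pis10703.t1 and Pis02226.t1 had it alone above, and the 4 root points of each lie close together.

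In the remaining 9 members leaf library 1 was at neither end; leaf library 4 was the highest in 5 of them and the lowest in 1. Their leaf ratios were 4.08 to 24.0. Leaf library 3 was the lowest in 5 of them in the orders 3, 1, 2, 4 and 3, 1, 4, 2, which had 3 and 2 members. The widest of the 9, Pis05092.t2, had 346, 94.6, 822 and 34.2 normalized counts in leaf libraries 1 to 4 and 296, 240.3, 353 and 305 in root libraries 1 to 4. Leaf libraries 1 and 3 were high and 2 and 4 were low in it, with all root values inside the leaf range. It was singled out after its values were seen.

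The small differences left among the root libraries also went with the place of leaf library 1. Root library 3 exceeded root library 2 in 20 of the 22 members highest in leaf library 1 (90.9%), by a median of 0.34 on the log2 scale. It did so in 18 of the 52 members lowest in leaf library 1 (34.6%), where the median difference was -0.12. The same 2 shares were 56.2% of 2722 and 38.6% of 2289 among models averaging at least 100. They were 71.4% of 566 and 32.5% of 504 at leaf ratios of 2 to 4. Among leaf-variable models that were not root-steady, they were 95.8% of 24 and 27.6% of 98. The contrast was thus not particular to members. The root order was not part of the rule, but the 2 root libraries were picked after the values were seen, models are not independent of each other, and no test was made. The leaf and root flasks are not known to be paired.

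Few members were called different between leaf and root. By limma on log2(normalized count + 1), with Benjamini-Hochberg adjusted p under 0.05 over 13688 tested models, 18 of 83 members passed (21.7%), 4 of them with more in leaf and 14 with more in root. The background over all tested models was 51.6%, with 24.4% in the leaf direction and 27.2% in the root direction. For the 7222 models averaging at least 100 the share was 46.3%, with 1977 called in the leaf direction and 1370 in the root direction. Leaf calls were thus the more frequent in that set, and root calls in members. A low share was built in, because members were chosen for a leaf spread that enters the error of this test: the median standard error was 0.42 on the log2 scale for members and 0.22 for all tested models. The median log2 difference, leaf minus root, was -0.20 for members and -0.05 for all tested models, and its median size was 0.53 and 0.60. For the 7222 models averaging at least 100, the median difference was 0.05, its median size 0.43 and the median standard error 0.18. The median size in members was thus below that of all tested models but above that of the 7222.

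The calls depended on single libraries. Without leaf library 1, 31 members passed, 13 in the leaf direction and 18 in the root direction, against 53.6% of all tested models. Without leaf library 4, 33 were called, 10 and 23, against 51.9%. A rise was partly built in here, because these 2 libraries spanned the leaf range of most members. Without root library 1, 11 were called, and without root libraries 2, 3 or 4 each time 12. The share of all tested models was then 45.4% to 47.2%. With column totals as the scale, the median log2 difference of all tested models moved to -0.53 and 61.9% of them were called. The members then gave 1 call higher in leaf and 23 higher in root.

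For most members, root lay within the span of the leaf replicates. This was largely built in, because the rule asked for a wide leaf range and a narrow root range. All 4 root values were inside the leaf range in 59 of the 83 members, and in 10 the ranges overlapped in part. These 2 counts were not made for other models. All leaf values were below all root values in 13 members and above them in 1, so that 14 did not overlap. Over all tested models 48.6% did not overlap, 26% with leaf below and 22.6% with leaf above. Among the 7222 models averaging at least 100, 3142 did not overlap. The leaf library closest to the root mean was library 2 in 30 members (36.1%), library 4 in 24 (28.9%), library 3 in 19 (22.9%) and library 1 in 10 (12%). Over the 7222 models it was library 1 in 25.6%, library 2 in 20.6%, library 3 in 22% and library 4 in 31.8%. The shares of libraries 3 and 4 in members were thus near those of the 7222 models.

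The single member with every leaf value above root was Pis18819.t1, which held 488, 1475, 874 and 2121 normalized counts in leaf libraries 1 to 4 and 209, 236, 295 and 290.1 in root libraries 1 to 4. Its lowest leaf value, in library 1, was the only one within 2-fold of its highest root value. The log2 difference was 2.07 with a standard error of 0.38 (limma adjusted p = 0.000974). At the other end, Pis16162.t1 had 82.3, 54.5, 65.4 and 424 in leaf libraries 1 to 4 and 1107, 1118, 1014 and 1470 in root libraries 1 to 4. Leaf library 4 stood far above the other leaf libraries and was still under every root library. The log2 difference was -3.45 with a standard error of 0.53 (limma adjusted p = 0.000319), the largest difference among the members. Both were picked for their differences.

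**Figure D5:**
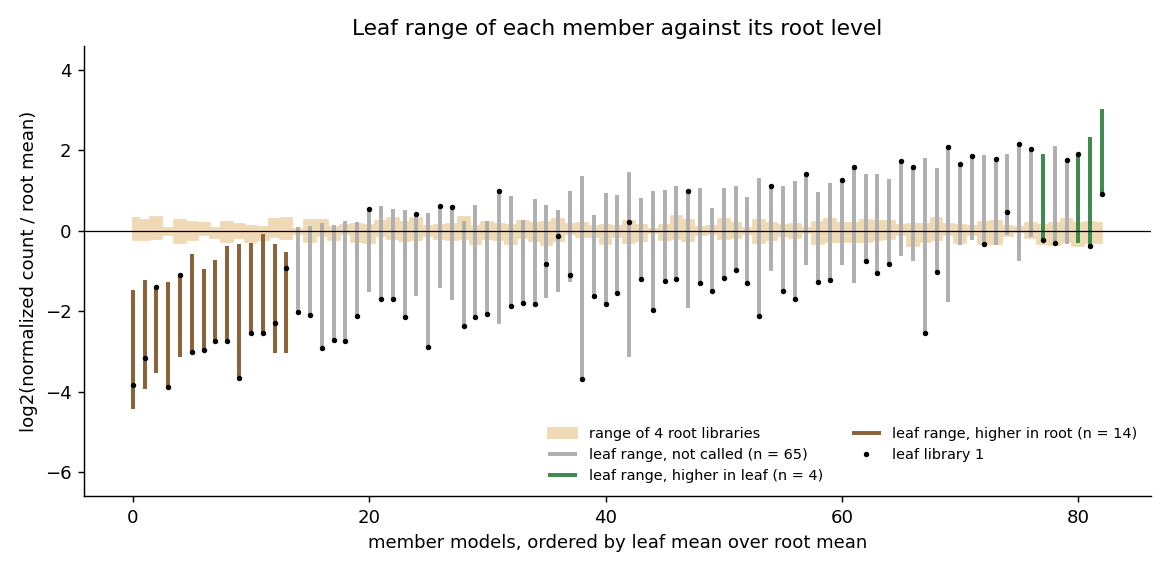
Leaf range of each of the 83 members (vertical bars, log2 of the normalized count over the root mean), ordered by leaf mean over root mean; the band is the range of the 4 root libraries, dots mark leaf library 1, and colours mark the limma call. The root band crosses or lies inside most grey bars; 14 bars carry the colour of root calls and 4 that of leaf calls.

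Members were spread along the numbering of the table. A pair of successive members had numbers no more than 10 apart in 6 cases, and whether the numbers follow genome position is not stated in the sources used here. The closest pair, 2 apart, took opposite leaf orders (1, 3, 2, 4 and 4, 3, 2, 1), and in 2 of the 6 pairs leaf library 1 was the lowest in one member and the highest in the other.

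The set of members rested on leaf libraries 1 and 4. With leaf library 1 left out, 15 of the 83 still met the rule on the other three, and with leaf library 4 left out 30 did. Leaving out leaf library 2 kept 81, and leaving out leaf library 3 kept 76. This contrast was built in, because leaf libraries 1 and 4 held the lowest and highest leaf values of most members. Among the 15 members that did not need leaf library 1, leaf library 4 was the highest in 8 and the lowest in 4. Leaf library 1 had the largest column total, 8749656 normalized counts against 7299221 to 8011007 in the other leaf libraries. With columns scaled to equal totals, 104 models met the rule, 65 of them among the 83. Leaf libraries 1 and 4 were the extremes in 85 of the 104. The part of leaf library 1 in the result was not tested beyond these counts. Flasks, leaf age and harvest are not described per library, so that a difference between flasks and a difference between libraries cannot be told apart.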

How the data were processed

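The authors deposited 1 table of normalized counts, a signal scaled by the authors, for 16504 transcript models in 8 libraries. Salmon and DESeq2 are named in the submitters' processing notes, without role or version. Which transcript set and genome build they used is not given in the sources used here. Per the labels' protocols, poly(A) RNA was primed with random hexamers and read as 150 bp pairs. No value above 0 was whole, and column medians of the ratio to the geometric mean were 1.00 to 1.02, so no count model was used. A low model's value carries counting error that the table does not state. Depth is the column total over the median of the lowest band of values, the worth of 1 read. All 8 columns were used.

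Members and comparisons were chosen with earlier results of these data known. The tissues were compared with limma 3.58.1 (R 4.3.3; trended prior variance, tissue as the only term, all 8 libraries) on log2(normalized count + 1) for models reaching 10 in 4 or more libraries (3 or more where one was omitted). This scale understates changes of low models. Benjamini-Hochberg adjustment ran over all tested models at a threshold of 0.05. The fit was tested on simulated data in which leaf and root of a model had the same spread. That simulation does not cover members, whose leaf spread was wide and root spread narrow. Other values were computed in Python 3.11.15 with pandas 2.3.3. The 2 members with the largest leaf ratio in each of the 2 commonest ways of parting the leaf libraries were named by rule; other names were chosen after their values were seen. Alternatives covered scale, pseudocount, filters, variance model, the limits of the rule, single libraries and a block on column numbers. Leaf and root were treated as unpaired, since leaf columns and leaf labels are numbered differently.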

Additional observations from a re-analysis of the deposited data

Results flagged for a closer look

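The leaf values of Pis16162.t1 contained an outlying library. Leaf library 4 held 424 normalized counts and leaf libraries 1 to 3 held 54.5 to 82.3. The gap below leaf library 4 made up 0.925 of the whole leaf range, which passes the 95% limit of the Dixon test for groups of 4. On the log2 scale the gap was 0.799 of the range and did not pass. Chance flags about 1 in 20 groups, and 20 were examined. This member was chosen for a wide range of these same leaf values, so the outcome is largely built in and is a description only. Over all 83 members the same limit was passed by 5 leaf groups and 7 root groups on the linear scale.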

How the results depend on the processing

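The number of members was 201 at a leaf ratio of at least 3 and 28 at 6, and 29 at a root ratio under 1.3 and 181 under 2. With single libraries left out it was 15 to 138, lowest without leaf library 1. Leaving out a leaf library can only lower the leaf ratio, whereas leaving out a root library loosens the rule and gave 110 to 138. It was 104 with column totals, 65 of them among the 83, and 56 with quantile normalization, 53 of them among the 83. Members with leaf libraries 1 and 4 as the extremes, an alternative chosen after seeing the data, numbered 153, 24, 25 and 140 under those 4 limits in turn, and 85 of 104 with column totals and 47 of 56 with quantile normalization. Leaf library 1 stood alone below in 58 of 104 members with column totals, in 64 at a leaf ratio of at least 3, in 17 at 6, and in 9 with the gap on the linear scale. Root library 3 exceeded root library 2 in 20 of 22 and in 18 to 19 of 52 members on all 4 scales.

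Calls between leaf and root were 18 of 83 by limma, against 51.6% of all tested models. They were 9 at adjusted p under 0.01 (38.1% of all tested models) and 6 against 2-fold (17.9%). Without a filter (47.2%) or without a trended variance (49.7%) they were 12. With a spread of its own for each tissue they were 25 (51.3%), and with single libraries left out 11 to 33 (45.4% to 53.6%). Calls higher in leaf, 4 in the main fit, were only 1 at adjusted p under 0.01, against 2-fold, without a filter or without a trended variance. They were also 1 without leaf library 2 or without any single root library. With a spread of its own for each tissue they were 10, without leaf library 1 they were 13, and without leaf library 4 they were 10. A fit with column number as a replicate block called 22 members, among them all 18, and 48% of all tested models. Deviations of same-numbered columns had correlations of -0.0196 to 0.0279, so the numbers were not taken as pairs. Directions of the 4 members named by rule, none of them past the threshold with all libraries, turned for Pis02226.t1 with column totals (-0.021), for Pis10703.t1 with column totals (-0.34) and with single libraries left out (-0.51 to 0.77), and for Pis09892.t1 with single libraries left out (-1.59 to 0.059). Pis15457.t1 turned with column totals (-0.40) and quantile normalization (-0.042), and with single libraries left out it ran from -0.49 to 0.95. The cause was not tested. Summing models that share a number was not run, since no number occurs more than once. Lowest leaf values of few reads limit the precision of the widest ratios.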
